A study of Mus musculus with 2 samples.

Results

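The replication-dependent histone genes were studied in single cells of the mouse embryo. They were taken as every gene whose symbol starts with Hist1h, Hist2h, Hist3h or Hist4h, which gave 67 of the 32285 genes in the count table. By symbol, 6 encode the linker histone H1, 18 encode H2A, 18 encode H2B, 12 encode H3 and 13 encode H4. The Hist1 cluster on chromosome 13 holds 54 of them, the Hist2 cluster on chromosome 3 holds 10, and chromosomes 11 and 6 carry 2 Hist3 genes and 1 Hist4 gene. Of the members, 63 had at least 50 UMIs (unique molecular identifiers, which count captured mRNA molecules) over both libraries and were compared between cells. Hist1h2aa and Hist1h2bq were at 0 UMIs, which by counting error alone allows up to 3 UMIs, and Hist1h2ba and Hist2h2aa2 had 1 UMI each. Of the 100-base windows of Hist1h2bq and Hist2h2aa2, 100% also occur in another member, in Hist1h2br and Hist2h2aa1. Their counts therefore do not show whether they were expressed.

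The cells came from E14 embryos that carried Myf5-Cre, which switches recombination on in cells with a history of Myf5 promoter activity, and a tdTomato (tdT) reporter that Cre turns on. The sorted tdT+ cells of 1 library were titled SRSF2f/f/Myf5-Cre/tdT, in which Cre removes both floxed alleles of the splicing factor gene Srsf2, and those of the other SRSF2f/w/Myf5-Cre/tdT, in which 1 allele is floxed. Both groups carry Cre and the reporter. Each group is 1 library, so no difference between genotypes could be tested, and the number of embryos behind each library is not given in the sources used here. The titles disagree with the names of the library summaries, which call the f/f-titled library wild type and the f/w-titled library knockout. Srsf2 was at 219 CPM (UMIs per 1000000 UMIs of the same cells) in the library labelled f/f and 153 CPM in the library labelled f/w, and skeletal muscle-like cells made up 16.5% and 1.04% of them, which goes against the titles as well. The libraries are therefore called f/f-labelled and f/w-labelled throughout, and no direction below can be assigned to a genotype.

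After quality limits, 12523 cells of the f/f-labelled library and 10345 cells of the f/w-labelled library were kept. Cells with at least 3 UMIs of Mki67 and Top2a together, genes of proliferating cells, were called cycling, and cells with at most 2 were called low-cycling. This gave 3470 cycling cells (27.7%) in the f/f-labelled library and 1881 (18.2%) in the f/w-labelled library. Just inside the limit, at 3 UMIs, were 312 and 175 cells, and just outside, at 2 UMIs, 722 and 364. A low-cycling cell may therefore still be a dividing one. Libraries shared 74 barcode sequences, which were left in. Intervals are exact 95% intervals of the counts. They cover counting error only, not the spread between cells or embryos.

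Histones package DNA: 2 copies each of H2A, H2B, H3 and H4 form the core of the nucleosome, and H1 binds the linker DNA between cores. Replication-dependent histone genes are transcribed mainly in S phase, when newly copied DNA must be packaged. Their mRNAs normally end just after a conserved stem-loop that binds SLBP (stem-loop binding protein), rather than in a poly(A) tail. Most replacement histones, such as H3.3 and H2A.Z, are made throughout the cell cycle from polyadenylated mRNAs. The 10x Genomics 3′ assay primes on poly(A), so it samples the polyadenylated or internally primed part of the histone mRNAs, and levels of different members are not comparable as amounts of mRNA. Levels are therefore compared for the same gene or the same sum between cells, and where a gene's or kind's share of the histone UMIs is given, it describes the UMIs and not amounts of mRNA.

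The stem-loop was searched in the annotated transcripts by a preset histone pattern of GG, 4 pyrimidines, the loop TTYN, 4 purines and CC. Y is a pyrimidine and N any base, and the 6 outer bases on each side had to pair. Of the 67 members, 44 carried the pattern. Among 21834 other protein-coding genes, 8 (0.037%) did. Only 6 different stem-loop sequences occurred, within a pattern that fixes part of the sequence in advance. They are shown, written as DNA with the stem-loop in capitals and up to 5 flanking bases. Members with high cycling ratios over all cells pooled, such as Hist1h2ap, can so be compared with members with low ones, such as Hist3h2ba and Hist1h1c. The first 4 genes have the most frequent form, which 26 members share, and the next is the form of 7 H4 genes.
Hist1h2ap: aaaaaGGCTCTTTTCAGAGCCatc
Hist1h2ae: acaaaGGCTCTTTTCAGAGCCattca
Hist1h1c: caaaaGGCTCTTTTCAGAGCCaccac
Hist3h2ba: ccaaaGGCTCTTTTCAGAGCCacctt
Hist1h4d: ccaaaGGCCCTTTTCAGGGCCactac
Hist1h3c: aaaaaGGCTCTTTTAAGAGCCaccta
Hist1h4i: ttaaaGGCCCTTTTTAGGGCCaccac
Hist1h4b: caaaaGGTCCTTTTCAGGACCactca
Hist2h2ac: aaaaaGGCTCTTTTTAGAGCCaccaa
The form of Hist1h3c was found in 6 members, those of Hist1h4i and Hist1h4b in 2 each and that of Hist2h2ac in 1. Of the 44 members, 22 have an annotated transcript that ends at most 100 bases after the stem-loop and 22 have one that runs on for more than 100 bases, as in Hist3h2ba (169 bases) and Hist1h1c (840 bases). Of the 23 members without it, 11 are annotated with no bases after the coding part, so the annotation cannot show a stem-loop there. Hist1h2bc and Hist2h2be are among the 23.

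The summed level of all members was 6335 CPM (95% interval 6315 to 6354) in cycling cells and 720 CPM (714 to 725) in low-cycling cells of the f/f-labelled library. In the f/w-labelled library it was 5367 CPM (5344 to 5390) and 742 CPM (736 to 747). The summed level was thus 8.80-fold (8.73 to 8.87) higher in cycling cells of the f/f-labelled library and 7.24-fold (7.17 to 7.30) higher in those of the f/w-labelled library. Cycling cells were also deeper, with a median of 16154 UMIs per cell against 9174, and 17957 against 8412. When every cell was thinned to 2000 UMIs and cycling was set by 1 thinned UMI of Mki67 and Top2a, the log2 ratio was 2.62 and 2.50, against 3.14 and 2.86 at full depth. In single cells, histone UMIs made up a median of 0.569% of a cycling cell's UMIs and 0.0624% of a low-cycling cell's in the f/f-labelled library, and 0.441% and 0.0605% in the f/w-labelled library. The cells overlapped: 65.5% and 63.0% of cycling cells, but also 5.41% and 5.88% of low-cycling cells, were at 0.25% or above.

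Of the 63 members compared, 55 were at least 2-fold higher in cycling cells in both libraries, where 3.33% of all 17243 genes compared were. None was at least 2-fold lower in both, against 3.68% of all genes. At least 8-fold higher in both were 27 members, against 0.702% of all genes. The median log2 ratio over the members was 3.09 in the f/f-labelled and 2.81 in the f/w-labelled library, while the median over all genes compared was -0.08 and -0.05. The 8 members outside the count were Hist1h1c, Hist1h2bc, Hist2h2be, Hist2h3c1, Hist2h3c2, Hist3h2a, Hist3h2ba and Hist4h4, and all but Hist1h1c and Hist1h2bc lie outside the Hist1 cluster. Next to the limit, Hist1h3h had log2 ratios of 1.32 and 1.52 and was counted, and Hist2h3c1 had 1.49 and 0.90 and was not. The plot of cycling ratios by histone kind shows each member in both libraries.

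**Figure D1:**
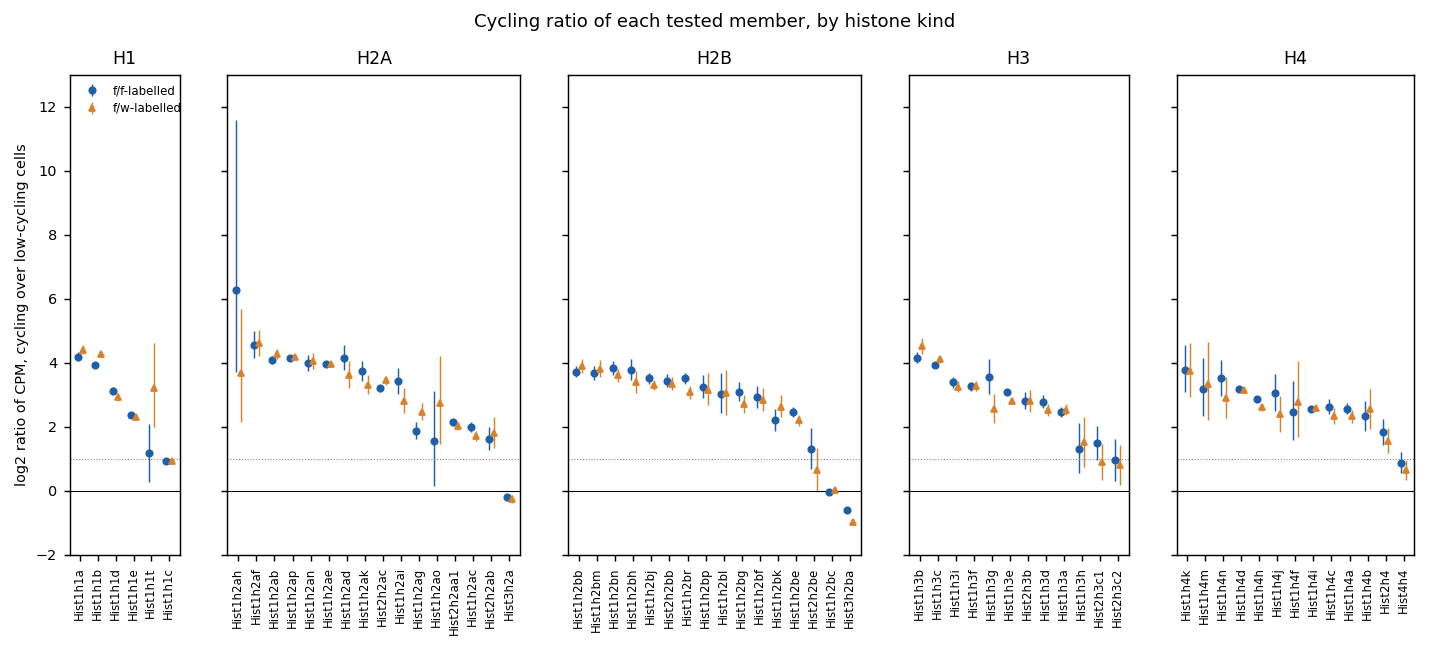
Log2 ratio of CPM, cycling over low-cycling cells, of the 63 members compared (circles, f/f-labelled; triangles, f/w-labelled; bars, exact 95% intervals of the counts; solid line, no difference; dotted line, 2-fold). In each kind most members sit well above the dotted line in both libraries, while Hist1h1c, Hist3h2a, Hist1h2bc, Hist3h2ba, Hist2h3c2 and Hist4h4 lie below it, and Hist1h2ah has a wide interval and 81 UMIs in all.

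The linker histone genes summed to 1753 CPM in cycling and 234 CPM in low-cycling cells of the f/f-labelled library, and to 1491 and 206 CPM in the f/w-labelled library. Hist1h1b was at 977 CPM in cycling and 64.2 CPM in low-cycling cells of the f/f-labelled library, and at 819 and 42.2 CPM in the f/w-labelled library. Its log2 ratio of 3.93 and 4.28 was close to that of Hist1h1a, which was at 111 against 6.09 CPM and 103 against 4.84 CPM (4.19 and 4.41). Hist1h1e was at 453 against 88.5 CPM and 360 against 73.6 CPM, a smaller log2 ratio of 2.36 and 2.29. Hist1h1d lay between them at 3.12 and 2.92. Over all cells pooled, Hist1h1c differed least with cycling, at 122 against 64.4 CPM in the f/f-labelled and 148 against 77.5 CPM in the f/w-labelled library (0.92 and 0.93). These ratios pool classes between which its low-cycling level differed, as given below, so they need not hold within a class. The order from Hist1h1a and Hist1h1b through Hist1h1d and Hist1h1e down to Hist1h1c was the same in both libraries apart from the low-count gene Hist1h1t (85 UMIs), whose log2 ratio was 1.16 and 3.19. Hist1h1t is known as a linker histone of the testis.

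H2A genes gave the largest part of the histone UMIs of cycling cells, with 3349 CPM in cycling and 230 CPM in low-cycling cells of the f/f-labelled library and 2665 and 195 CPM in the f/w-labelled library, a 14.6-fold and a 13.7-fold difference. Hist1h2ap alone held 31.0% of all histone UMIs, and it was at 2271 against 130 CPM and 1684 against 93.1 CPM (log2 ratio 4.13 and 4.18). Of the 100-base windows of its transcript, 92.2% also occur in another member, most often in Hist1h2ao (50 UMIs in all), so how the counting divided reads among these genes is uncertain. Hist1h2ae was at 737 against 47.6 CPM and 657 against 42.0 CPM (3.95 and 3.97). Hist1h2af was low but had the highest mean ratio of the members with at least 200 UMIs, at 13.8 against 0.588 CPM and 15.3 against 0.633 CPM (4.55 and 4.60). Hist1h2ab was at 113 against 6.63 CPM and 90.4 against 4.71 CPM. Over all cells pooled, the only H2A gene compared that was not higher in cycling cells was Hist3h2a, at 13.8 against 16.1 CPM and 20.9 against 25.02 CPM (-0.21 and -0.26). Its annotation overlaps Trim17 on the same strand, so part of its counts is uncertain.

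H2B genes as a sum differed least between cycling and low-cycling cells, at 397 against 160 CPM in the f/f-labelled library and 442 against 242 CPM in the f/w-labelled library, 2.48-fold and 1.83-fold. In low-cycling cells most of that sum came from a pair of genes that were not 2-fold higher in cycling cells over all cells pooled. Hist1h2bc was at 88.5 against 91.8 CPM and 141 against 140 CPM (log2 ratio -0.05 and 0.01), and Hist3h2ba at 26.6 against 40.6 CPM and 36.9 against 72.9 CPM (-0.61 and -0.98). These ratios pool classes between which the low-cycling levels of both genes differed, as given below, so they need not hold within a class. Of the 16 H2B genes compared, 13 were at least 2-fold higher in both libraries, with a median log2 ratio of 3.17 and 3.06. Hist1h2be (2.44 and 2.20) is annotated over part of Hist1h1e on the same strand, so their reads may be mixed.

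H3 genes summed to 484 against 46.3 CPM in the f/f-labelled and 412 against 43.5 CPM in the f/w-labelled library. Hist1h3c was at 175 against 11.4 CPM and 130 against 7.60 CPM (3.93 and 4.10), and Hist1h3b at 52.7 against 2.95 CPM and 41.4 against 1.80 CPM (4.16 and 4.52). Hist1h3e was at 105 against 12.3 CPM and 103 against 14.7 CPM (3.09 and 2.81). H4 genes summed to 352 against 50.3 CPM and 358 against 55.2 CPM. Hist1h4d was at 128 against 14.3 CPM and 144 against 16.4 CPM (3.17 and 3.13). Hist4h4, the lone gene of its cluster, was at 2.77 against 1.51 CPM and 3.70 against 2.38 CPM (0.88 and 0.64).

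Cycling ratios were also read by annotated transcript end. All 21 members compared that end at most 100 bases after the stem-loop were at least 2-fold higher in cycling cells of both libraries, with a median log2 ratio of 3.19 and 3.15. Of the 22 that run on for longer, 16 were, with a median of 2.49 and 2.36. Of 20 members with no stem-loop in the annotation, 18 were, with a median of 3.47 and 3.16. The 12 members compared that hold the polyadenylation letters AATAAA within the last 40 annotated bases had a median of 1.39 and 1.25, and 6 of them were called, against 49 of the 51 others. These groups were formed after the ratios were known and are given as a description.

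The 250 bases before the RefSeq start (build GRCm38.p6) could be matched for 61 members. On either strand, TATAAA was found in 47.5% of them and in 12.97% of all 27025 promoters of that length, and CCAAT in 82.0% against 34.5%. CCAAT was in all 6 H1, 17 H2A and 16 H2B promoters matched, in 8 of 10 H3 promoters and in 3 of 12 H4 promoters. The octamer ATGCAAAT was found in 7 of 17 H2A promoters, 6 of 16 H2B promoters and in none of the H1, H3 and H4 promoters, for 21.3% of members against 1.61% of all promoters. Neighbouring H2A and H2B genes on opposite strands can have overlapping windows, as Hist1h2ae with Hist1h2bg and Hist1h2ah with Hist1h2bk. The same motif is then counted for both genes, so these promoters are not all independent. Promoters of a member with a high cycling ratio and of the member with the lowest are shown with these motifs in capitals (its reverse complement where the motif lies on the other strand). Both hold TATAAA and CCAAT on either strand, and Hist1h2ae holds the octamer too. In Hist1h2ae, TATAAA lies only on the opposite strand, in bases shared with the window of Hist1h2bg, where it lies on the strand of that gene. The window of Hist1h2ae also reaches into the annotated Hist1h2bg gene, which starts at base 23571396.
Hist1h2ae, chr13:23571221-23571470, minus strand: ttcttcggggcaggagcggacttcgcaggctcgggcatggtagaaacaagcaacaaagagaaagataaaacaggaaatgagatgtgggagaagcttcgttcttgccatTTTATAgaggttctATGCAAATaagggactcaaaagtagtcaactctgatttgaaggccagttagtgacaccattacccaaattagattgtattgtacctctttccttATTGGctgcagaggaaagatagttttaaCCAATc
Hist3h2ba, chr11:58948661-58948910, plus strand: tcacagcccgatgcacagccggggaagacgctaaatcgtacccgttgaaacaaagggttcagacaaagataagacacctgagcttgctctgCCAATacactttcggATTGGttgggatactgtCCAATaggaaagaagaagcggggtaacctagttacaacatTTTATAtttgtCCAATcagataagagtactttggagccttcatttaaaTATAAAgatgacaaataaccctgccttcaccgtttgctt

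To place the members within the cell cycle, cycling cells were divided by UMIs of 16 S-phase genes and 12 G2/M genes, lists that hold no histone gene. Cells with at least 2 times as many S as G2M list UMIs (S-high) had a summed histone level of 7169 CPM (1576 cells) in the f/f-labelled and 6131 CPM (838 cells) in the f/w-labelled library. Cells between the limits had 7389 and 6041 CPM, and G2M-high cells 3622 and 2881 CPM. S-high cells were thus 1.98-fold and 2.13-fold above G2M-high cells (log2 ratio 0.99, interval 0.972 to 0.999, and 1.09, 1.07 to 1.11). Over all cycling cells pooled, the middle group lay near the S-high group, which did not hold within every class of cells, as given below. Along the S list's share, the summed level went from 2441 and 1950 CPM in cells with a share under 20% to 9039 and 7270 CPM at 60% to 80%, and was 5864 and 5112 CPM above 80%. It also followed the Mki67 and Top2a count, from 668 and 694 CPM in cells with 0 UMIs through 1548 and 1606 CPM at 3 UMIs to 7788 and 7130 CPM at 20 or more. With S list UMIs per 10000 UMIs of the cell, cycling cells went from 876 and 1164 CPM at fewer than 2 to 9113 and 9359 CPM at 20 or more. Low-cycling cells with at least 20 S list UMIs per 10000 had 1576 and 2298 CPM (463 and 148 cells), against 700 and 723 CPM in those with fewer than 2.

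**Figure D2:**
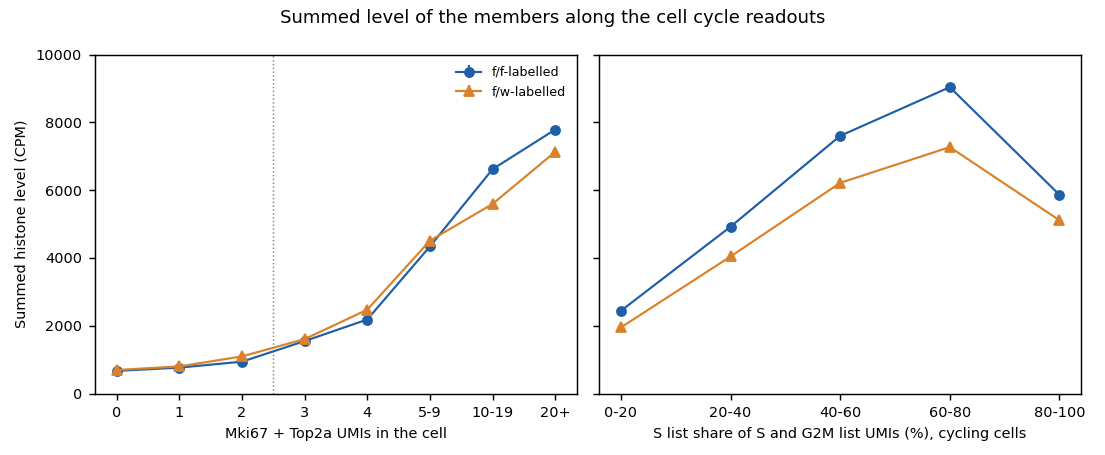
Summed histone level (CPM) against the UMIs of Mki67 and Top2a in the cell (left; the dotted line is the limit between low-cycling and cycling) and, in cycling cells, against the S list's share of the S and G2M list UMIs (right), for both libraries, with exact 95% intervals mostly smaller than the symbols. Levels go up from 668 and 694 CPM to 7788 and 7130 CPM on the left, and on the right they are highest at an S share of 60% to 80% in both libraries.

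Single members differed between these stages by different amounts. Hist1h1b was 2.62-fold and 2.77-fold higher in S-high than in G2M-high cells, Hist1h2ae 2.26-fold and 2.42-fold, and Hist1h2ap 2.07-fold and 2.51-fold. Hist1h3c differed less, by 1.53-fold and 1.54-fold, and Hist1h1e by 1.70-fold and 1.78-fold. Hist1h2bc had a log2 ratio of -0.09 (-0.19 to 0.01) and -0.07 (-0.17 to 0.03), so no difference between the stages was detectable at this depth. Hist3h2a was lower in S-high cells of the f/f-labelled library (-0.51, -0.76 to -0.27) but at 0.08 (-0.18 to 0.35) in the f/w-labelled library. Hist3h2ba was at -0.20 (-0.38 to -0.03) and -0.15 (-0.34 to 0.05).

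The cells were then divided into classes by fixed limits on marker UMIs, leaving out cells at the limit of more than 1 class. Neu-like stands for neural, SKM-like for skeletal muscle, Mesen-like for mesenchymal, Chon-like for chondrocyte, Sch-like for Schwann cell, Peri-like for pericyte, Epi-like for epithelial, Endo-like for endothelial, Immu-like for immune and Ery-like for erythroid cells. Cells at no limit (20.1% and 23.8%) and at several (20.7% and 23.4%) stayed unnamed, and Osteo-like cells (22 and 15) were too few and did not have their markers among their leading genes. The 10 leading genes of each class used held at least 1 of its own markers and none of another class. The same markers set the classes and cells at another class's limit were left out, so this does not check the names independently. Leading genes of the Immu-like cells were headed by the mast cell genes Cpa3, Cma1 and Hdc, and those of the Endo-like cells by Ccl21a, Lyve1 and Mmrn1. These classes may therefore not stand for all immune or endothelial cells. In all 9 classes with at least 10 cells in each state, the summed histone level was higher in cycling cells of both libraries, between 3.78-fold and 15.9-fold. SKM-like cells had 7785 CPM (1087 cells) against 857 CPM (984 cells) in the f/f-labelled library and 6409 CPM (50 cells) against 653 CPM (58 cells) in the f/w-labelled library, 9.09-fold (8.91 to 9.27) and 9.82-fold (8.97 to 10.8). On the log2 scale these are 3.18 and 3.30, and with cells thinned to 2000 UMIs they were 2.24 and 1.77, so that the order of the libraries turned. Mesen-like cells had 7425 against 620 CPM and 8904 against 562 CPM, and Neu-like cells 8529 against 1247 CPM and 8627 against 1162 CPM.

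Cycling Endo-like, Immu-like and Chon-like cells had lower histone levels than cycling Mesen-like cells in both libraries. Endo-like cells had 4366 CPM (106 cells) in the f/f-labelled and 4172 CPM (311 cells) in the f/w-labelled library, with log2 ratios to Mesen-like cells of -0.77 (-0.80 to -0.74) and -1.09 (-1.11 to -1.07). Immu-like cells had 4580 and 4629 CPM (-0.70 and -0.94) and Chon-like cells 4719 and 5675 CPM (-0.65 and -0.65). Among S-high cells alone the log2 ratios were -0.82 and -1.05 for Endo-like, -0.74 and -0.93 for Immu-like and -0.57 and -0.71 for Chon-like cells. Cycling cells of these classes did not all have the same depth. The median was 18789 and 20251 UMIs in Endo-like and 20317 and 20518 in Immu-like cells. In Chon-like cells it was 14113 and 14179 UMIs, near the 13711 and 14498 of Mesen-like cells. The part of depth in these ratios was not tested. SKM-like cells lay near Mesen-like cells in the f/f-labelled library (0.07) and below them in the f/w-labelled library (-0.47), where they are 50 cells. Epi-like cells (-0.79 and -0.81, 17 and 23 cells) and Peri-like cells (-0.12 and -0.69, 48 and 17 cells) were below Mesen-like cells in both libraries. Sch-like (-0.42) and Neu-like cells (-0.05) were below them only in the f/w-labelled library. Mesen-like cells themselves had 8904 CPM there, against 7425 CPM in the f/f-labelled library. Within Mesen-like cells the group between the stage limits was above S-high cells, at 10230 and 12679 against 8342 and 10573 CPM. Within SKM-like cells it was below them, at 8184 and 5745 against 8740 and 7364 CPM, with 13 and 30 cells in the f/w-labelled library. Low-cycling Ery-like cells were lowest, at 252 and 154 CPM (66 and 76 cells).

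**Figure D3:**
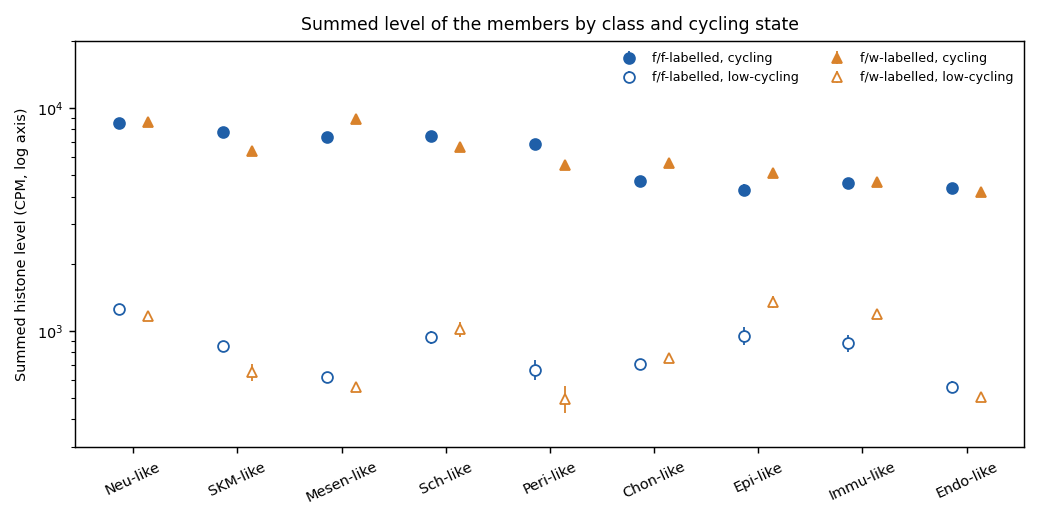
Summed histone level (CPM, log axis) in cycling cells (filled) and low-cycling cells (open) of 9 marker classes in the f/f-labelled (circles) and f/w-labelled (triangles) library, with exact 95% intervals. Every filled symbol lies above the open symbols, and cycling Endo-like cells are at 4366 and 4172 CPM against 8529 and 8627 CPM in Neu-like cells.

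The mix of members also differed between classes. In cycling Endo-like cells, H2A genes made up 61.5% (60.5 to 62.5) and 57.6% (57.0 to 58.2) of histone UMIs and H1 genes 16.3% and 19.8%. In Immu-like cells H2A genes made up 47.5% and 40.3% and H1 genes 30.7% and 36.8%, and in Mesen-like cells 53.4% and 49.2%, and 27.4% and 30.4%. Hist1h1b alone went from 7.26% and 9.59% of histone UMIs in Endo-like to 16.5% and 20.0% in Mesen-like cells. In the same classes it was at 317 and 400 CPM against 1229 and 1780 CPM.

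The members with the lowest cycling ratios had class patterns of their own in low-cycling cells. Hist3h2ba was at 483 CPM (459 to 507) and 463 CPM (446 to 480) in low-cycling Neu-like cells, against 27.1 and 33.2 CPM in Mesen-like cells, 11.9 and 15.1 CPM in SKM-like cells and 7.35 and 12.8 CPM in Chon-like cells. Its log2 ratio of Neu-like to Mesen-like cells was 4.16 (4.02 to 4.29) and 3.80 (3.66 to 3.94). Within Neu-like cells it was lower in cycling cells, at 171 and 132 CPM, whereas within SKM-like cells it was higher, at 25.7 and 37.3 CPM. Its neighbour Hist3h2a was highest in the same class, at 93.7 and 85.1 CPM in low-cycling Neu-like against 14.1 and 21.7 CPM in Mesen-like cells. Sch-like cells came next, with Hist3h2ba at 86.9 and 90.4 CPM. Of the Neu-like cells 7.38% and 6.76% were cycling, and their part in the negative cycling ratio of Hist3h2ba over all cells was not tested. Within Mesen-like cells it was at 27.8 CPM in cycling against 27.1 CPM in low-cycling cells, and at 36.4 against 33.2 CPM.

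Hist1h1c was highest in low-cycling Immu-like cells, at 198 and 309 CPM against 41.2 and 40.7 CPM in Mesen-like cells (log2 ratio 2.26, 1.97 to 2.55, and 2.93, 2.79 to 3.07). Chon-like cells came next among the larger classes, with 103 and 94.7 CPM. Hist1h2bc was at 129 and 199 CPM in low-cycling Chon-like and at 128 and 230 CPM in Immu-like cells, but at 41.9 and 68.1 CPM in SKM-like and 52.1 and 55.4 CPM in Neu-like cells. Hist1h2ap, the member with the most UMIs, was at 117 and 70.0 CPM in low-cycling Mesen-like and at 146 and 122 CPM in Neu-like cells, a log2 ratio of 0.32 and 0.80.

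**Figure D4:**
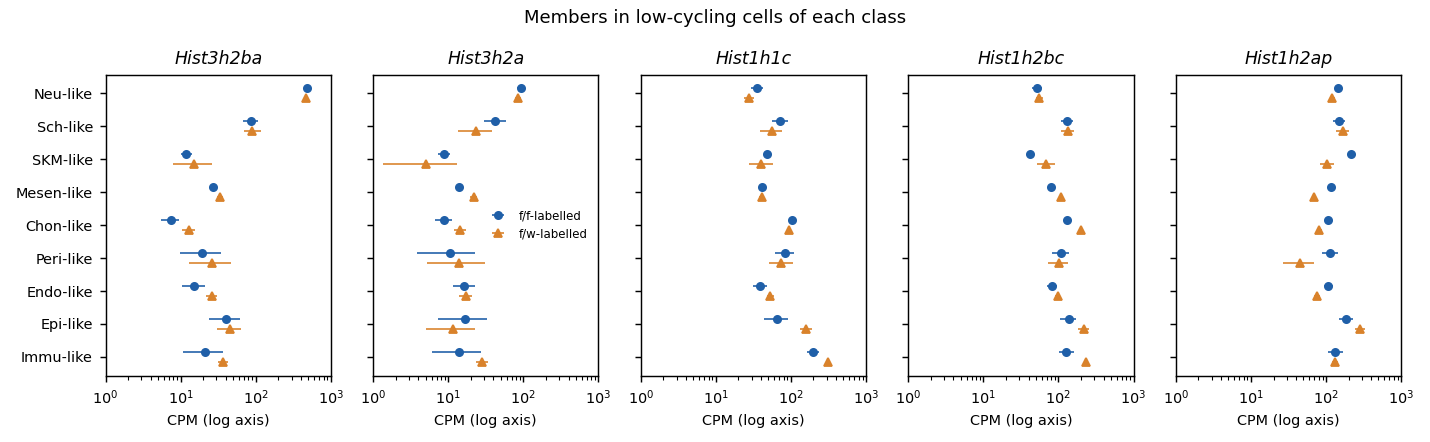
Levels (CPM, log axis) of 5 members in low-cycling cells of 9 marker classes, f/f-labelled (circles) and f/w-labelled (triangles), with exact 95% intervals. Hist3h2ba reaches 483 and 463 CPM in Neu-like cells and stays under 100 CPM elsewhere, Hist3h2a has the same leading class, and Hist1h1c and Hist1h2bc do not.

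The question of whether histone levels differ between the libraries could only be described, with 1 library each. In cycling cells the summed level was lower in the f/w-labelled library, by a log2 ratio of -0.24 (-0.25 to -0.23), and the median over the 62 members compared was -0.11, against 0.01 over all genes. That median was 0.00 when cycling was set per 10000 UMIs and 0.10 after thinning. None of the members was 2-fold higher or lower, where 9.72% of all genes were at least 2-fold higher and 2.77% at least 2-fold lower. Of these members 41 were lower and 21 higher, where 49.1% of all genes were lower and 50.9% higher. The counting interval lay below 0 for 23 members and above 0 for 15. The direction was not the same in every class. Among classes with at least 50 cycling cells in both libraries, the log2 ratio was -0.28 (-0.32 to -0.24) in SKM-like, -0.07 (-0.10 to -0.03) in Endo-like, 0.27 (0.22 to 0.31) in Chon-like and 0.26 (0.25 to 0.28) in Mesen-like cells, and its mean over these 4 classes was 0.05. Of the members with at least 50 UMIs in the cycling cells of the class, 33 of 33 were higher in the f/w-labelled library within Chon-like cells, where 43.4% of all such genes were, and 46 of 52 within Mesen-like cells, where 40.3% were. These counts take the sign only. Many intervals within Chon-like and Mesen-like cells included 0, as for Hist1h1d within Chon-like cells (0.0005, -0.41 to 0.41). Members were counted in the same cells and some share sequence, so they are not independent. Within Endo-like cells 22 of 42 members were higher (47.3% of all genes), and within SKM-like cells 22 of 54 (43.3%). Cycling cells were 31.3% SKM-like in the f/f-labelled and 2.66% in the f/w-labelled library, and 3.05% and 16.5% Endo-like, so the pooled ratio compares different mixtures of cells. Cell cycle genes differed in the same direction as the pooled ratio: the median log2 ratio between the libraries was -0.44 over the S list and -0.41 over the G2M list, which hold neither Mki67 nor Top2a. Their part in the histone ratio was not tested.

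Single members differed from the pooled ratio. Hist1h2ap was lower in the f/w-labelled library over all cycling cells (-0.43, -0.44 to -0.42). It was also lower within SKM-like (-0.55, -0.62 to -0.49) and Endo-like cells (-0.30, -0.35 to -0.25). It was not lower within Chon-like (0.02, -0.05 to 0.09) or Mesen-like cells (0.04, 0.02 to 0.07). Its share of the histone UMIs of cycling cells was lower in 6 of 6 classes examined, with intervals that did not overlap, such as 36.0% against 31.0% in Mesen-like and 43.0% against 36.6% in Endo-like cells. The highest log2 ratios among members with at least 200 UMIs in cycling cells were those of Hist1h2ag (0.78, 0.59 to 0.98), Hist1h2bc (0.67, 0.62 to 0.72) and Hist3h2a (0.59, 0.45 to 0.73). Within Endo-like cells Hist1h2bc was lower in the f/w-labelled library (-0.51, -0.67 to -0.34), as was Hist3h2a (-0.56, -0.95 to -0.15), and Hist1h2ag was at -0.54 (-1.20 to 0.14). Within Mesen-like cells they were at 0.55, 0.36 and 0.64, so the pooled ratios of these members were not those of every class. The lowest were those of Hist1h2bp (-0.83, -1.09 to -0.59), Hist1h4n (-0.64, -0.999 to -0.30) and Hist1h1d (-0.57, -0.64 to -0.50). Hist1h1d was at -1.11 within SKM-like, 0.44 within Endo-like and 0.17 within Mesen-like cells. Members that end at most 100 bases after the stem-loop had a median of -0.32 (17 of 20 lower), and members that run on for longer a median of 0.11 (12 of 22 higher). Within Chon-like cells these medians were 0.38 and 0.36, within Mesen-like cells 0.22 and 0.36, within Endo-like cells -0.10 and 0.07, and within cells at several class limits -0.07 and 0.20. Of these groups, the longer ends had the higher median in all but the Chon-like cells. Over all cycling cells the members ranged from -0.83 to 0.78 for the shorter and from -0.57 to 0.70 for the longer ends, so the groups overlapped. All cycling cells include the other sets of cells, so the sets are not separate repeats. Members with no stem-loop in the annotation had a median of -0.13 (14 of 20 lower), and 0.445, 0.51, 0.18 and 0.11 in the same cells in that order. Their median was the highest of the groups within Chon-like, Mesen-like and Endo-like cells. SKM-like cells were not read by annotated end, and the groups were formed after the cycling ratios were known. Of the 100-base windows of Hist1h2ag, Hist1h2bp and Hist1h4n, 76.2%, 51.1% and 80.7% also occur in another member, so how reads were divided between them and these members is uncertain.

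**Figure D5:**
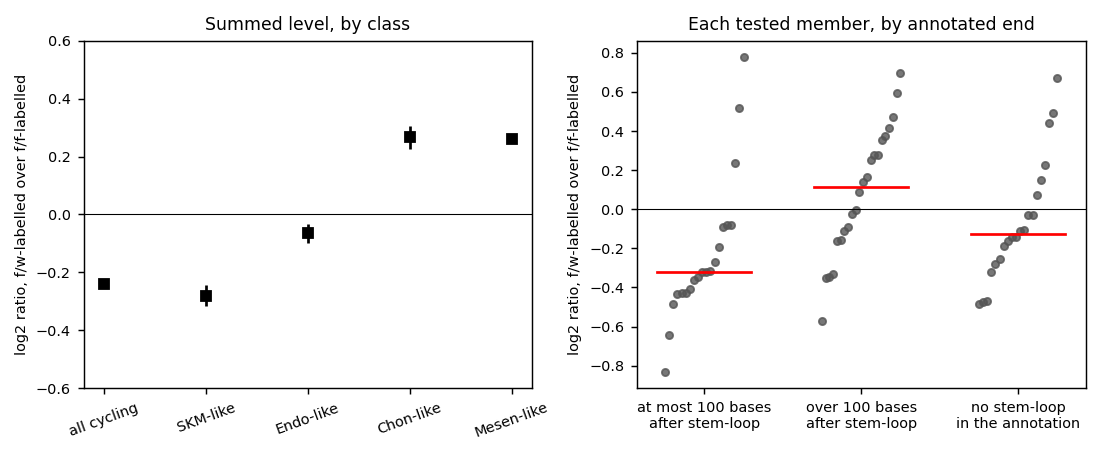
Log2 ratio of the f/w-labelled over the f/f-labelled library in cycling cells, for the summed histone level in all cycling cells and in the 4 classes with at least 50 cycling cells in both libraries (left; squares with exact 95% intervals) and for each of 62 members by annotated end (right; dots, with the median as a line). The summed level is below 0 in all cycling cells (-0.24), SKM-like cells (-0.28) and Endo-like cells (-0.07) and above 0 in Chon-like (0.27) and Mesen-like cells (0.26).

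Genes that act with the histone genes were read from lists written for this purpose. Of 11 replacement histone genes, 3 were at least 2-fold higher in cycling cells of both libraries, namely H2afz (H2A.Z, 2258 against 862 CPM and 2084 against 854 CPM), H2afx (H2A.X, whose phosphorylated form marks DNA damage) and Cenpa (the centromeric H3). Their median log2 ratio was 0.72 and 0.88. H3f3a and H3f3b, which encode H3.3, had log2 ratios of -0.03 and -0.06, and 0.27 and 0.23. The linker histone gene H1f0 was at 122 against 74.3 CPM and 138 against 71.2 CPM (0.72 and 0.95).

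Of 11 genes of histone mRNA transcription and 3′ end processing, 2 were at least 2-fold higher in both libraries. Slbp was at 170 against 66.9 CPM and 153 against 69.7 CPM (log2 ratio 1.34 and 1.13), and Casp8ap2, which encodes the processing factor FLASH, at 95.5 against 45.2 CPM and 81.2 against 40.4 CPM. Npat, the coactivator of histone genes, was at 55.7 against 39.0 CPM and 53.0 against 39.4 CPM, and the U7 snRNP genes Lsm10 and Lsm11 had log2 ratios of -0.28 and 0.05, and 0.46 and 0.45. Of 11 chaperone genes, Asf1b (3.16 and 3.16), Chaf1a and Chaf1b were at least 2-fold higher, the latter 2 being subunits of CAF-1, which deposits H3 and H4 behind the replication fork. Nasp, a chaperone of H1 and H3, was at 489 against 218 CPM and 328 against 186 CPM (1.17 and 0.82). For comparison, 13 of 16 S list genes and 12 of 12 G2M list genes were at least 2-fold higher, with medians of 1.53 and 1.75, and 3.78 and 3.89. The median of the members lay between those of the S and G2M lists. Cycling was set by Mki67 and Top2a, so this order does not place the members within the cell cycle.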

How the data were processed

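Single-cell RNA-seq was made from sorted tdT+ cells of the trunk and limbs of E14 embryos, 1 library per genotype label. The authors aligned reads to mm10 with Cell Ranger, aggregated both libraries after down-sampling of reads, and deposited UMI counts per gene and barcode, with introns not included. The submitters' processing notes list Cell Ranger 3.1.0, STAR and Seurat 3.1.1, and the matrix header Cell Ranger 5.0.0. The libraries held 15268 (f/f-labelled) and 12498 (f/w-labelled) barcodes, 156093779 and 128116615 UMIs, and medians of 9219 and 8106 UMIs per cell.

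From the counts as deposited, barcodes with at most 10% mitochondrial UMIs and within 2 SD of the library's mean log10 UMIs and log10 genes were kept. No doublet caller was run, but cells that met the marker limits of several classes were left out of the classes. UMIs were summed per library, state and class, since cells are not replicates. Levels are CPM with exact Poisson intervals and ratios have exact intervals from the binomial split of 2 counts, both at 95%. With 1 library per group no p-value was computed. Genes with at least 50 UMIs over both libraries were compared. Python 3.11.15, NumPy 2.4.6, SciPy 1.17.1, pandas 2.3.3 and matplotlib 3.10.9 were used. The intervals were run on simulated Poisson counts, the model they assume, so that run checks the code and not the spread between cells. Stem-loops, ends and shared 100-base windows were read from GENCODE vM21 transcripts (GRCm38), and promoters from RefSeq (GRCm38.p6).

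Named members were the 10 with most UMIs, the 5 highest and 5 lowest cycling ratios (at least 200 UMIs), and the 3 highest and 3 lowest ratios between libraries (at least 200 UMIs in cycling cells). The S-phase, G2/M, replacement histone, processing and chaperone lists were written by hand. Other members and class results were named after their values were seen. The members and lists were chosen with earlier results of these data known. Alternatives changed the cell limits, the cycling limit, depth, the denominator, the class limits and the members used.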

Additional observations from a re-analysis of the deposited data

Results flagged for a closer look

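In cycling cells, the summed histone level of the f/w-labelled over the f/f-labelled library had opposite signs in different classes, at a log2 ratio of -0.28 in SKM-like and -0.0654 in Endo-like cells but 0.26 in Mesen-like and 0.27 in Chon-like cells. The difference between classes was not tested, since each class has 1 library per label, and the SKM-like value rests on 50 cycling cells of the f/w-labelled library.

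Barcodes that the cell limits removed also held histone UMIs, which the comparisons did not use. Those over the mitochondrial limit had 1728 CPM in the f/f-labelled and 1127 CPM in the f/w-labelled library. Those outside the 2 SD limits only had 2597 and 1870 CPM, against 2996 and 2217 CPM in the kept cells.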

How the results depend on the processing

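Of 87 alternative values for 11 results, 45 stayed within the limits set for their result, 39 moved beyond them with the same sign and 3 changed sign. The limits were the counting interval for summed ratios and the medians of the members' interval ends for member medians. The count of members was judged by a fold limit. These limits differ in width, so the labels are not comparable between results. The cycling ratios below are log2 values, f/f-labelled first. The summed cycling ratio of 3.14 and 2.86 was 3.19 and 2.90 at a mitochondrial limit of 5%, 3.08 and 2.80 with no 2 SD limits, 3.12 and 2.84 without haemoglobin, mitochondrial and ribosomal protein genes in the denominator, 2.91 and 2.75 as a mean over cells, 2.90 and 2.91 as a mean over classes, and 2.62 and 2.50 with cells thinned to 2000 UMIs, which left out 609 and 750 cells. It was 3.16 (f/f-labelled) with cycling set per 10000 UMIs. Thinning moved the median member ratio of the f/f-labelled library from 3.09 to 2.75. The SKM-like ratio of 3.18 in the f/f-labelled library was 3.15 at a mitochondrial limit of 5% and 3.15 with cycling set per 10000 UMIs, 3.08 with the reduced denominator, 3.14 as a mean over cells, 3.36 with marker limits doubled, and 2.24 after thinning, which gave 1.77 in place of 3.30 in the f/w-labelled library.

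The S-high over G2M-high ratio of 0.99 and 1.09 was 1.26 and 1.38 when stages were set by a ratio of 4, 1.04 and 1.15 with the reduced denominator, 0.95 (f/f-labelled) at a mitochondrial limit of 5% and 1.13 (f/w-labelled) as a mean over cells. The ratio between libraries of -0.24 was -0.14 with cycling set per 10000 UMIs and also as a mean over cells, -0.12 after thinning, -0.27 with the reduced denominator and also with no 2 SD limits, and -0.22 when centred on the median gene, which lay at -0.02. The median member ratio between libraries of -0.11 reversed to 0.0012 with cycling set per 10000 UMIs and to 0.10 after thinning. The causes of these moves were not tested.

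Chosen after the data were seen, the mean over 4 classes turned the ratio between libraries to 0.0455, and the mean over stages gave -0.28. Without Hist1h2ap it was -0.14. Without the 25 members that share at least 50% of their windows it was -0.14, the cycling ratios were 2.73 and 2.44, and 33 of 40 members were at least 2-fold higher, in place of 55 of 63. No paired analysis was possible because each label has 1 library, and no library could be left out. Counts under 50 limit the 4 members not compared, and for Hist1h2bq and Hist2h2aa2 so does sequence fully shared with another member.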
